A study of Macaca fascicularis with 21 samples.

Results

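The visceral and yolk sac endoderm of cynomolgus monkey (Macaca fascicularis) embryos grown in culture was described from 49 cells of days 11 to 14 and 52 cells of days 16 and 17, of 1453 annotated single cells in all. Its members are the cells that the authors' deposited annotation labels VE/YE, read here as visceral endoderm and yolk sac endoderm. Visceral endoderm is the epithelium that lines the epiblast around implantation, and its descendants form the endoderm layer of the yolk sac. It takes up maternal protein and lipid, secretes apolipoproteins and other serum proteins before the liver exists, and is known for a liver-like set of transcription factors (HNF4A, FOXA2, GATA4 and GATA6). An anterior group of its cells secretes antagonists of NODAL, BMP and WNT signals, such as CER1, LEFTY1 and DKK1, which help to set the head to tail axis of the epiblast beneath.

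Blastocysts were freed of the zona pellucida and each was grown in its own well on Matrigel in medium whose serum was raised day by day. At collection the extra-embryonic tissue around the attached embryo was dissected away, the remaining disc was digested, and single cells were picked by hand and sequenced from the 3′ end of mRNA, with up to 96 barcodes in a pool. The 21 embryos were collected on day 11 (2 embryos), day 12 (5), day 13 (3), day 14 (4), day 16 (4) and day 17 (3), all untreated and all grown in vitro. Days 11 to 14 are called early and days 16 and 17 late. The labels do not say whether embryos had separate parents, so p-values measure the spread between these embryos. VE/YE cells here are those left on the disc after dissection and then picked, which limits what their number says about the embryo. Doublets were not called, since cells were picked by hand.

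By embryo there were 13 and 5 on day 11, then 2, 5, 4, 2 and 4 on day 12, then 1, 3 and 6 on day 13. Day 14 gave 1, 2, 0 and 1, day 16 gave 14, 7, 8 and 10, and day 17 gave 3, 3 and 7. Counts were summed over the VE/YE cells of each embryo with at least 3 of them, which left 7 early embryos (days 11 to 13, 40 cells) and 7 late embryos (52 cells); no day 14 embryo entered. Levels below are CPM, CPM being the count of a gene divided by the TMM-scaled total of the sum and multiplied by 1000000, of these sums. The sums held 22334 counts (day 17 replicate 1) to 1677017 counts (day 16 replicate 1), so values of day 17 replicate 1 are the least precise. A VE/YE cell held 4638 to 442836 counts (median 48315), with medians of 46298 early and 49315 late. No 2 embryos shared a cell name, no 2 cells had identical counts, and the day given for each of the 1453 cells equalled that of its embryo. The embryos carry 1 of 2 kinds of day label: day 12 replicate 1, day 13 replicates 1 and 2 and day 17 replicates 1 and 2 have a culture stage, the others a developmental stage. The late to early comparison therefore mixes both kinds of label in each arm, while on day 16 all embryos have a developmental stage.

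The annotation was checked against 5 endoderm markers, and 4 of them were far above every other annotated family of cells. APOA1, the main protein of high-density lipoprotein, was at 9936 ± 6374 CPM (SD, n = 14 embryos), 36.3-fold (CPM + 1) above the next family, extraembryonic mesenchyme (EXMC), at 273. TTR, the carrier of thyroxine and of retinol-binding protein, was at 1449 ± 1940 CPM, 38.5-fold above EXMC. CER1, a secreted NODAL and BMP antagonist, was at 183 ± 222 CPM, 38.9-fold above epiblast (EPI) cells at 3.74. HNF4A, a nuclear receptor of liver-like epithelia, was at 52.9 ± 34.3 CPM, 13.7-fold above the germ cell (PGC) family at 2.93. FOXA2, a forkhead factor of endoderm, was at 66.2 ± 36.6 CPM, 2.95-fold above PGC at 21.8. Within embryos, VE/YE was the highest family for APOA1 and TTR in 14 of 14, for HNF4A and FOXA2 in 13 and for CER1 in 10. No label or file header says how the cells were named, and a name taken from expression would use these same values, so VE/YE is described against other types with no test.

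Of the marker lists for other families, the trophoblast list was highest in the trophoblast family (TE), the mesenchyme list in EXMC and the epiblast list in EPI. The amnion list was highest in EXMC rather than in the amnion family (AM). The remaining family, Gast, holds cells annotated as gastrulating, and the summed gastrulating list was not highest there: it was at 172 CPM in VE/YE, 169 in PGC and 148 in Gast.

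By a fixed size rule, at least 4-fold (CPM + 1) above the highest other family and at least 10 CPM, 177 genes stood out in VE/YE, 0.591% of 29958 genes with a count. The 12 with the largest folds at 50 CPM or more were CER1, TTR, APOA1, FOXQ1 (31.7-fold), MEP1A (30.9), F2 (30.3), MTTP (26.4), LEFTY1 (24.1), APOB (24.0), RAB17 (23.7), FGB (23.3) and FOXA1 (22.5). FOXQ1 and FOXA1 are forkhead factors, MEP1A is a brush border protease, F2 is prothrombin and FGB a fibrinogen chain. MTTP loads lipid onto APOB, the protein of very low density lipoprotein, LEFTY1 is a NODAL antagonist, and RAB17 is a small GTPase of epithelial membrane traffic. Among the secreted anterior factors and their regulators, 8 of 16 listed genes stood out: CER1, LEFTY1, LEFTY2, DKK1, HHEX, OTX2, LHX1 and GSC. Among lipoproteins and their assembly, 8 of 18 did, namely APOA1, APOA2, APOA4, APOB, APOC3, APOM, MTTP and FABP1, the last a fatty acid binding protein. Coagulation factors and protease inhibitors gave 5 of 20 (FGB, F2, SERPINC1, SERPINF2 and VTN), endoderm transcription factors 4 of 20 (FOXA1, HNF4A and HHEX among them), and signalling ligands 4 of 23 (GDF3, BMP6, IHH and IGF1).

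**Figure D1:**
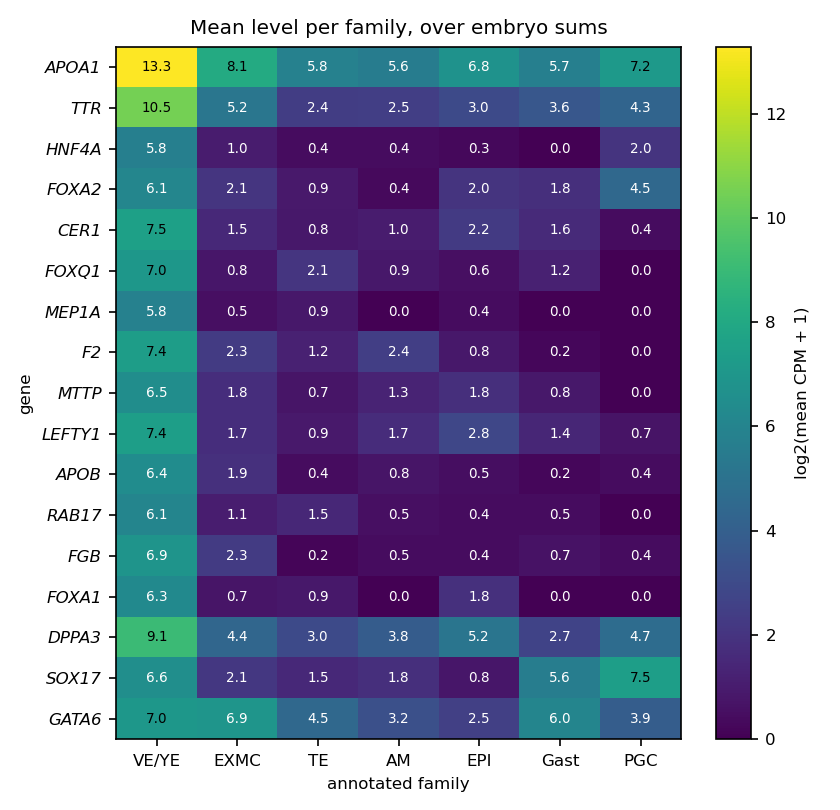
Mean level of 17 endoderm genes (rows) in the 7 annotated families (columns), as log2(mean CPM + 1) over embryo sums of at least 3 cells. The VE/YE column is the brightest for the secreted and liver-like genes, whereas GATA6 is as high in EXMC (122 CPM, against 129 in VE/YE) and SOX17 is higher in PGC (176 against 94.8).

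The liver-like output was partial. Of 14 serum carrier proteins only TTR and RBP4 stood out, and 7 (GC, AHSG, HP, CP, FETUB, APCS and ORM1) had no count in any of the 14 VE/YE sums. A count of 0 over their 7785790 counts allows up to 0.385 CPM, by 3 counts, for counting error only. ALB, serum albumin, averaged 1.06 CPM. AFP, the fetal counterpart of albumin, was at 67.2 ± 73.1 CPM, close to the Gast family at 51.4. No member of the basement membrane list (16 genes) stood out, although LAMB1, a laminin chain, was at 528 ± 158 CPM and COL4A1, a collagen IV chain, at 279 ± 207, below EXMC at 739. The general endoderm factors were shared: GATA4 was at 264 ± 145 CPM, 2.02-fold above EXMC at 131.

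Several genes outside the lists also stood out and were picked after their values were seen. DPPA3, known from oocytes, naive pluripotent cells and germ cells, was at 537 ± 478 CPM in VE/YE and 35.4 in EPI, 14.8-fold higher. LGR5, an R-spondin receptor, was at 325 ± 205 CPM (7.82-fold), CXCR4, a chemokine receptor, at 256 ± 151 (10.5-fold) and S100A16, a calcium-binding protein, at 12.8-fold above TE. In the junction list, CDH2 (N-cadherin) stood out at 800 ± 251 CPM, 5.03-fold above PGC, while CDH1 (E-cadherin) was at 6.01 ± 4.45 CPM, against 23.3 in AM.

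The set that stood out was not the same in each period. By the same rule 247 genes stood out in early sums and 208 in late sums, and 73 were in both, 29.6% of the early and 35.1% of the late set. PGC had no early sum, so the highest other family was taken over fewer families early than late. OTX2, a homeobox factor of anterior endoderm and neural tissue, stood 46.1-fold above the next family early and 1.37-fold late. GSC, a homeobox gene of the organizer, stood 45.2-fold above early and 3.24-fold late, and IHH, a hedgehog ligand made by visceral endoderm, 71.7-fold early and 6.62-fold late. MTTP (27.5 and 15.2) and F2 (19.2 and 19.2) kept folds above 4 in each period. These folds depend on the other families as well as on VE/YE.

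The share of picked cells annotated VE/YE did not differ between periods beyond the spread of the embryos. It was 6.83 ± 5.97% in early embryos (SD, n = 14; range 0 to 16.7%, median 5.25%) and 9.05 ± 4.35% in late ones (n = 7; 3.49 to 15.9%, median 8.75%). The difference was 2.22 percentage points with a 2-sided permutation p of 0.391 (exact). By day the means were 11.2% (day 11), 9.14% (day 12), 7.53% (day 13), 1.22% (day 14), 11.6% (day 16) and 5.64% (day 17). Day 14 was the lowest, with at most 2.35% in any of its 4 embryos. Because the outer tissue was dissected away before picking, these are shares of picked cells.

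Within VE/YE the anterior antagonists and the secreted liver-like genes were spread unevenly over cells. CER1 was counted in 19 of 49 early cells and 12 of 52 late cells, and reached 5930 CPM in an early cell and 4940 CPM in a late one. TTR was counted in 32 of 49 and 41 of 52, and APOA1 in 49 of 49 and 51 of 52. Early, 10 cells had counts of CER1 and TTR, 9 of CER1 alone, 22 of TTR alone and 8 of neither; late these were 9, 3, 32 and 8. In the 10 early cells with most CER1 the median was 0 CPM for TTR, 547 for LEFTY1 and 5536 for APOA1. In the 10 early cells with most TTR it was 0 for CER1, 0 for LEFTY1 and 18023 for APOA1. Late cells gave the same order: 38.1 CPM of TTR, 190 of LEFTY1 and 1659 of APOA1 in the top CER1 cells, against 0 of CER1, 0 of LEFTY1 and 17997 of APOA1 in the top TTR cells. These medians are descriptions of cells chosen by their level.

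**Figure D2:**
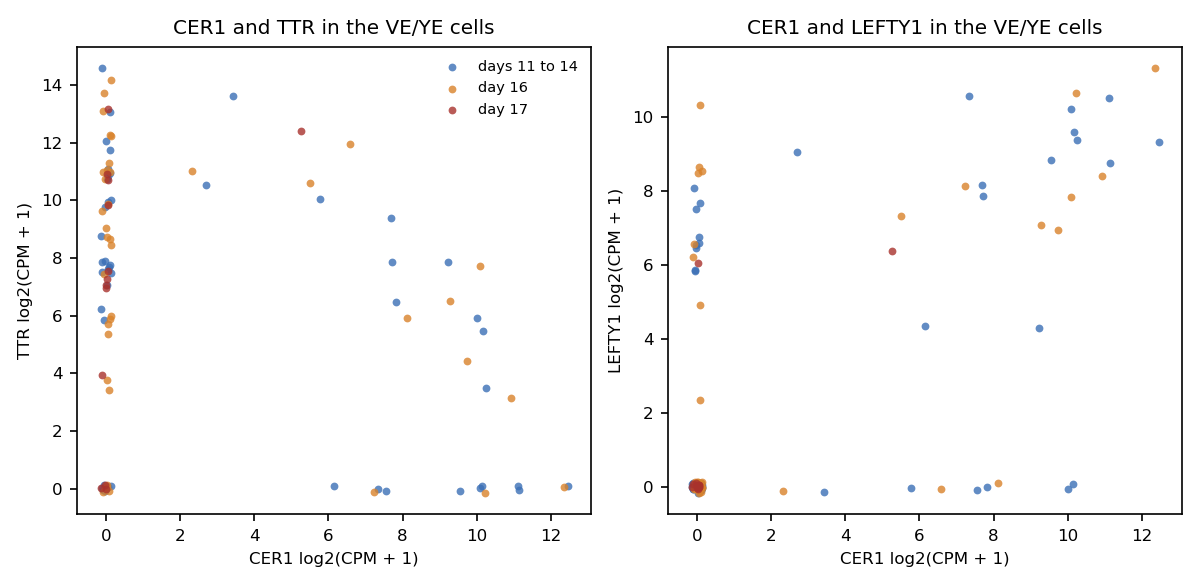
Each point is a VE/YE cell, early or late, placed by log2(CPM + 1) of CER1 on the x axis and of TTR or LEFTY1 on the y axis, with small jitter so that cells at 0 can be seen. Among cells with a CER1 count, 9 early and 3 late cells had no TTR count, while 10 early and 9 late cells had both. LEFTY1 goes up with CER1.

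Spearman correlations over the cells of each period, which share embryos and pools, gave a similar picture as a description. The late rho pools 39 cells of day 16 with 13 of day 17. CER1 was counted in 11 and 1 of these, LEFTY1 in 16 and 2 and GDF3 in 31 and 0, and median APOA1 was 6888 and 505 CPM. A late rho therefore mixes differences between the days with differences between cells of a day, and no rho within a day was taken. Over 9663 genes counted in at least 20% of VE/YE cells, the genes most like CER1 by the mean of the early and late rho were LEFTY2 (0.63 and 0.63), HHEX (0.68 and 0.44), GSC (0.69 and 0.41), LEFTY1 (0.54 and 0.53), CADPS, SPOCK3, CNFN and ROR1. Most like APOA1 were NPC2 (0.77 and 0.62), a lysosomal cholesterol carrier, SERPINE2 (0.71 and 0.58), a secreted protease inhibitor, ENPP1, GSN, NOL4, GDF3, PDZK1 and MTTP. CER1 against APOA1 gave -0.54 early and -0.21 late, and CER1 against TTR gave -0.35 and -0.15. CER1 against total counts gave 0.17 and 0.05, and APOA1 against total counts -0.20 and 0.00, in 49 and 52 cells.

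Shares of positive cells were also taken after thinning every cell to 20000 counts, which left out 16 early and 16 late cells with fewer. CER1 was then counted in 39.4% of 33 early cells (95% exact binomial interval 22.9 to 57.9%) and 25.0% of 36 late cells (12.1 to 42.2%). HNF4A was counted in 60.6% (42.1 to 77.1%) and 36.1% (20.8 to 53.8%), TTR in 63.6% and 58.3%, and LEFTY1 in 36.4% and 41.7%. In EXMC cells thinned alike, with median depths of 52413 and 61585 before thinning, CER1 was counted in 1.08% and 2.54%, HNF4A in 0% and 2.03%, and TTR in 2.16% and 11.2%. The VE/YE shares of these genes were above those in EXMC, which a label taken from expression of these same genes would fix in advance. APOA1 was counted in 37.3% of early and 49.7% of late EXMC cells, so a count of APOA1 alone does not mark a cell as endoderm here. Intervals cover counting error only, and cells of an embryo are not replicates.

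From the early to the late embryos, 62 of 5969 genes tested changed in VE/YE, 42 up and 20 down (edgeR quasi-likelihood test, Benjamini-Hochberg adjusted p under 0.05; 745 genes had an unadjusted p under 0.05). That is 1.04% of the genes, 0.704% for rises and 0.335% for falls, and the median log2 change over all genes was 0.04. FGFR3, FOLR1, IHH and FOXQ1 were among the genes that fell, and IGFBP2, PGK1, P4HA1 and LOXL2 among those that rose. None of the 5 markers passed the test. In 17 of the 62 genes the early and late embryos did not overlap. These genes were already selected by the test, and the share over all genes tested is not given, so 17 is a description only.

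FOXQ1 was at 94.8, 207 and 371 CPM in the lowest, median and highest early embryo, and at 0, 41.0 and 84.4 in the late ones. Every late embryo lay below every early one, with a log2 change of -2.40 (SE 0.46, edgeR adjusted p = 0.0129). SLC5A6, the transporter of biotin and pantothenate, went from 80.3, 148 and 237 CPM to 0, 29.1 and 55.5, again with no overlap (-2.36, SE 0.53, edgeR adjusted p = 0.0292). FOLR1, the folate receptor of absorptive epithelia, was at 75.0, 222 and 456 CPM early and at 0, 41.8 and 91.8 late, where the highest late embryo passed the lowest early one (-2.30, edgeR adjusted p = 0.0361). FGFR3, a fibroblast growth factor receptor, had the largest fitted fall: 31.8, 90.8 and 196 CPM early and 0, 2.56 and 46.9 late (-2.96, edgeR adjusted p = 0.0404). IHH was at 107, 238 and 629 CPM early and at 0, 94.1 and 173 late, all 7 late embryos below the early median (-1.72, edgeR adjusted p = 0.0404). The other large falls were METTL7B, ZNF259, CAPG, HARS, TNNC1 and PROS1, the last being the anticoagulant protein S. NLRP2, a maternal-effect gene, also fell, from a median of 532 to 193 CPM with 7 of 7 late embryos below the early median (-1.50). Of the 90 tested genes that stand out in VE/YE, 4 changed (FOXQ1, IHH, METTL7B and TNNC1), and all 4 fell. The rule for standing out used these same sums, so this is a description only.

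Among the rises, IGFBP2, an insulin-like growth factor binding protein, was at 0, 2.31 and 25.0 CPM in the lowest, median and highest early embryo and at 73.8, 81.1 and 237 late, with no overlap (4.08, SE 0.77, edgeR adjusted p = 0.0129). NREP, a small protein linked to wound repair, went from 2.29, 9.25 and 92.0 CPM to 108, 166 and 360, also without overlap (3.18, SE 0.60, edgeR adjusted p = 0.0129). PRTG, a neural cell adhesion receptor, went from 64.3, 153 and 266 CPM to 384, 660 and 993 (2.03, SE 0.33, edgeR adjusted p = 0.00666). WFDC2, a secreted protease inhibitor-like protein, rose from a median of 51.1 to 369 CPM (3.28) and MLLT3, a chromatin reader, from 34.7 to 203 (2.41), each with all late embryos above all early ones. WDR54 (3.58), HERC3 (3.22), KIAA1211 (3.11), LOXL2 (2.85), a lysyl oxidase of the matrix, PTPRK (2.62) and RPL29 (2.52) rose as well. RPL29 and RPL32 have many processed copies in primate genomes, so their counts are uncertain.

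**Figure D3:**
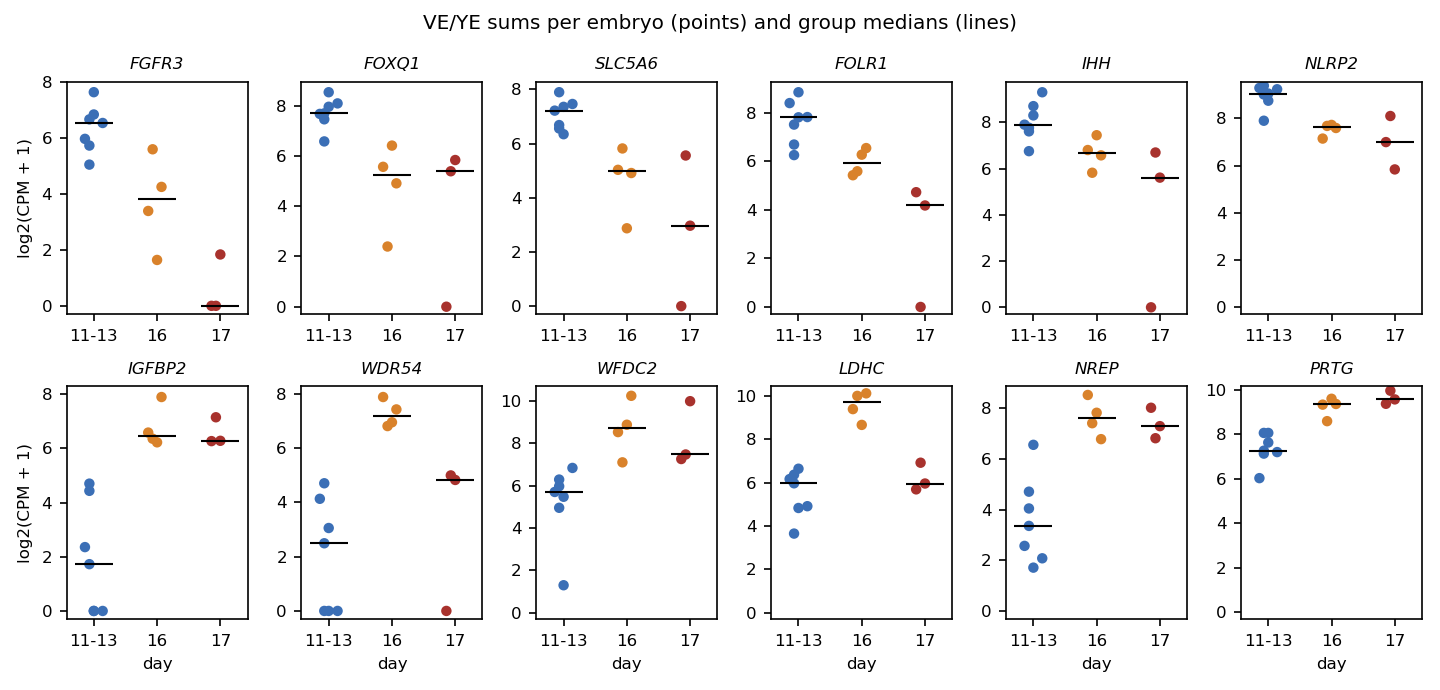
CPM of 12 genes in the VE/YE sum of each embryo, for days 11 to 13, 16 and 17, with bars at medians. The upper genes are lower in late embryos (FOXQ1 207 to 41.0 CPM in the median) and the lower ones higher (IGFBP2 2.31 to 81.1), whereas LDHC is high on day 16 alone (407 to 1120 CPM) and at 50.8 to 121 on day 17.

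For several of these genes the late rise was carried by day 16. LDHC, the name RefSeq gives to a lactate dehydrogenase locus whose reads may be shared with LDHA, was at 675, 1033, 407 and 1120 CPM on day 16, at 50.8, 121 and 61.4 on day 17 and at 11.6 to 99.3 early (late minus early 3.24, edgeR adjusted p = 0.0298). PGK1, a glycolytic kinase, was at 1942, 1357, 1601 and 1519 on day 16, at 432, 459 and 318 on day 17 and at 257 to 499 early. P4HA1, a collagen prolyl hydroxylase induced by hypoxia, was at 300, 401, 445 and 500, then 50.8, 35.9 and 127, and at 9.25 to 110 early. In all 3 genes the day 16 embryos stood alone and the day 17 embryos overlapped the early ones. PGK1 and P4HA1 were the 2 of 13 tested glycolysis and hypoxia genes that passed the late to early test, all 13 had a positive log2 change, and the list's median was 1.52 beside 0.04 for all genes.

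In the other lists at most 1 gene was called between early and late. The anterior factors had 0 calls in 12 tested (median log2 -0.70), endoderm transcription factors 0 in 11 (-0.05), lipoproteins 0 in 9 (-0.17), coagulation factors 0 in 3, serum carriers 0 in 2, basement membrane 0 in 14 (-0.16), cholesterol synthesis 0 in 11 (0.42), transporters 0 in 6, junctions 0 in 10, iron handling 0 in 5, S phase 0 in 16 (0.41) and mitosis 0 in 14 (-0.08). Hypoblast and parietal genes had 0 in 8 and haematopoietic cytokines 0 in 3. Signalling ligands had IHH down in 9 tested and endocytic uptake FOLR1 down in 8. APOA1 was at 2175, 13575 and 22058 CPM in the lowest, median and highest early embryo and at 508, 6214 and 15297 late (-0.96, SE 0.56, edgeR adjusted p = 0.538). CER1 was at 0, 150 and 677 early and 0, 134 and 523 late (-0.64, SE 1.24, edgeR adjusted p = 0.893). TTR spanned 2.27 to 3803 CPM early and 203 to 7282 late (0.89, SE 1.12, edgeR adjusted p = 0.815). The wide spread of CER1 and TTR within each period left only large changes detectable.

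Summed markers of other cells were set beside the same contrast, and their early and late ranges overlapped. Summed over the 11 genes of the mesenchyme list, VE/YE held 20.8, 130 and 512 CPM (lowest, median, highest embryo) early and 265, 573 and 1244 late, against 12140 in EXMC itself. The 10 trophoblast genes summed to 49.6, 740 and 2027 CPM early and 95.6, 307 and 392 late, against 13728 in TE. The 8 epiblast genes, GDF3 among them, summed to 155, 486 and 728 CPM early and 156, 609 and 2044 late. COL3A1, a collagen abundant in EXMC, had a log2 change of 2.59 (edgeR adjusted p = 0.0572), and POU5F1, the core pluripotency factor, of 2.45 (edgeR adjusted p = 0.0509). No gene of the mesenchyme, trophoblast or epiblast lists passed the test (0 in 4, 2 and 3 tested), nor did amnion, gastrulating or blood and endothelial genes (0 in 2, 2 and 1). Their part in the changes of the 62 genes was not tested. Leaving out genes at least 8 times higher in another family left the count at 62, with 5917 genes tested in place of 5969. So few genes were removed that this count cannot show the part of other cells.

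These calls rested on few embryos. Of the 62 genes, 10 were called in all 14 fits that left out 1 embryo: FOXQ1, IGFBP2, NREP, PRTG, MLLT3, BNIP3L, C5H4orf3, WSB1, RPL32 and a locus with no symbol, and 47 were called among embryos with a developmental stage label alone. The fits gave 14 calls (without day 12 replicate 2) to 77 (without day 13 replicate 2).

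As day 16 and day 17 differed in the genes above, they were compared directly, a comparison chosen after the data were seen. It shares its embryos with the late arm of the comparison before. Of 7574 genes tested, 67 rose and 178 fell from day 16 (4 embryos, 39 cells) to day 17 (3 embryos, 13 cells), 3.23% in all, 0.885% up and 2.35% down (1046 at an unadjusted p under 0.05; median log2 over all genes -0.12). With developmental stage labels alone the calls were 55 rises and 68 falls. CER1, LEFTY1 and LEFTY2 fell, as did 8 of 11 cholesterol synthesis, 9 of 17 glycolysis and hypoxia and 3 of 15 mitosis genes, while FST, FOXA1 and GRIA1 rose. Of the 119 tested genes that stand out in VE/YE, 24 fell and 6 rose. Genes high on day 16 can pass the rule for standing out through those sums, so this balance is a description only. On day 17, replicates 1 and 2 carry a culture stage label while replicate 3 and all of day 16 carry a developmental stage, so day and kind of label cannot be told apart in 2 of the 3 embryos.

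Among the 13 anterior factors tested, 6 fell and 1 rose, and the list's median log2 change was -2.70. CER1 was at 181, 149, 523 and 134 CPM on day 16 and at 0, 0 and 5.12 on day 17 (-6.16, SE 0.99, edgeR adjusted p = 0.000105). No day 17 embryo came near the lowest of day 16, and 1 of 13 day 17 cells had a CER1 count, against 11 of 39 on day 16. LEFTY1 was at 73.5, 235, 352 and 78.4, then 0, 7.69 and 10.2 (-4.37, edgeR adjusted p = 0.00361). LEFTY2 was at 304, 64.0, 399 and 338, then 0, 5.13 and 11.9 (-4.92, edgeR adjusted p = 0.000249). LHX1, a LIM homeobox factor of anterior endoderm, was at 98.4, 81.1, 99.1 and 293 on day 16 and had no count on day 17, at least 69.4-fold lower by a floor of 3 counts over the 3 day 17 sums and at least 18.6-fold without day 17 replicate 3 (edgeR adjusted p = 0.000249). OTX2 was at 374, 235, 569 and 188, then 25.4, 82.1 and 26.5 (-2.70, edgeR adjusted p = 0.0117), and 3 of 7 fits without 1 embryo missed that threshold (adjusted p up to 0.0857 in edgeR). EOMES, a T-box factor, also fell. The day 17 values lay below all day 16 embryos in each of these genes. In day 17 replicate 1, the shallowest sum, OTX2 at 25.4 CPM was 1 count. A value of 0 there allows up to 76.2 CPM by a floor of 3 counts. That is above the lowest day 16 value of LEFTY1 (73.5) and of LEFTY2 (64.0), so for LEFTY1 and LEFTY2 that embryo is not shown to be lower.

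FST, follistatin, an antagonist of activins, went the other way. It was at 24.3, 8.53, 46.4 and 6.72 CPM on day 16 and at 533, 433 and 699 on day 17 (4.73, SE 0.61, edgeR adjusted p = 8.69e-06). DKK1 (0.99), GSC (-1.42) and FRZB (0.74) did not pass the test. With CER1 and the LEFTY genes, their ligands GDF3 and NODAL fell, the 2 of 11 signalling ligands tested that did. GDF3 was at 1180, 1818, 903 and 141 CPM on day 16 and had no count in any of 13 day 17 cells, at least 540-fold lower, and at least 145-fold without day 17 replicate 3 (edgeR adjusted p = 1.23e-05). NODAL was at 130, 68.3, 141 and 91.8, then 0, 5.13 and 9.39 (-3.85, edgeR adjusted p = 0.0268), and 5 of 7 fits that left out an embryo no longer called it.

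Cholesterol synthesis had 8 of 11 tested genes lower on day 17, with a median of -3.12, and INSIG1, MVD, HMGCS1 and FDFT1 had the smallest p. These 4 were called whichever embryo was left out, and the other 4 were not. HMGCS1, which makes the substrate of the rate-limiting reductase, was at 436, 444, 335 and 432 CPM on day 16 and at 50.8, 43.6 and 9.39 on day 17 (-3.75, SE 0.68, edgeR adjusted p = 0.00056). MVD, mevalonate diphosphate decarboxylase, was at 223, 209, 114 and 484, then 0, 2.56 and 11.1 (-5.09, edgeR adjusted p = 0.000249). INSIG1, a sterol sensor partner, had 2 counts on day 17 against 577 on day 16, a ratio of 0.00571 on the TMM-scaled totals (exact 95% counting interval 0.00069 to 0.0207). MSMO1 and EBP, further enzymes of the pathway outside the list, were among the 10 falls of smallest p. Across these genes the day 17 embryos lay together and below day 16.

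Of 17 glycolysis and hypoxia genes, 9 fell, with a median of -2.38. SLC2A1, the glucose transporter GLUT1, was at 1252, 1152, 1964 and 739 CPM on day 16 and at 127, 89.8 and 266 on day 17 (-2.87, SE 0.49, edgeR adjusted p = 0.000274). BNIP3 (-3.0), ENO1 (-2.10) and NDRG1 (-3.63) fell too, as did SLC16A3, a lactate exporter, and AK4, outside the list. SLC2A1, BNIP3, ENO1 and NDRG1 were called whichever embryo was left out, and the other 5 were not. Mitosis genes gave 3 falls in 15 (NUSAP1, TOP2A and UBE2C, the last missed in 3 of 7 leave-out fits), with a median of -2.70 and 0 of 15 positive. NUSAP1, a spindle protein, was at 387, 525, 152 and 388 CPM and then 50.8, 0 and 3.41. S phase genes gave 1 fall in 16, RRM1 (missed in 2 of 7), with a median of -0.96.

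**Figure D4:**
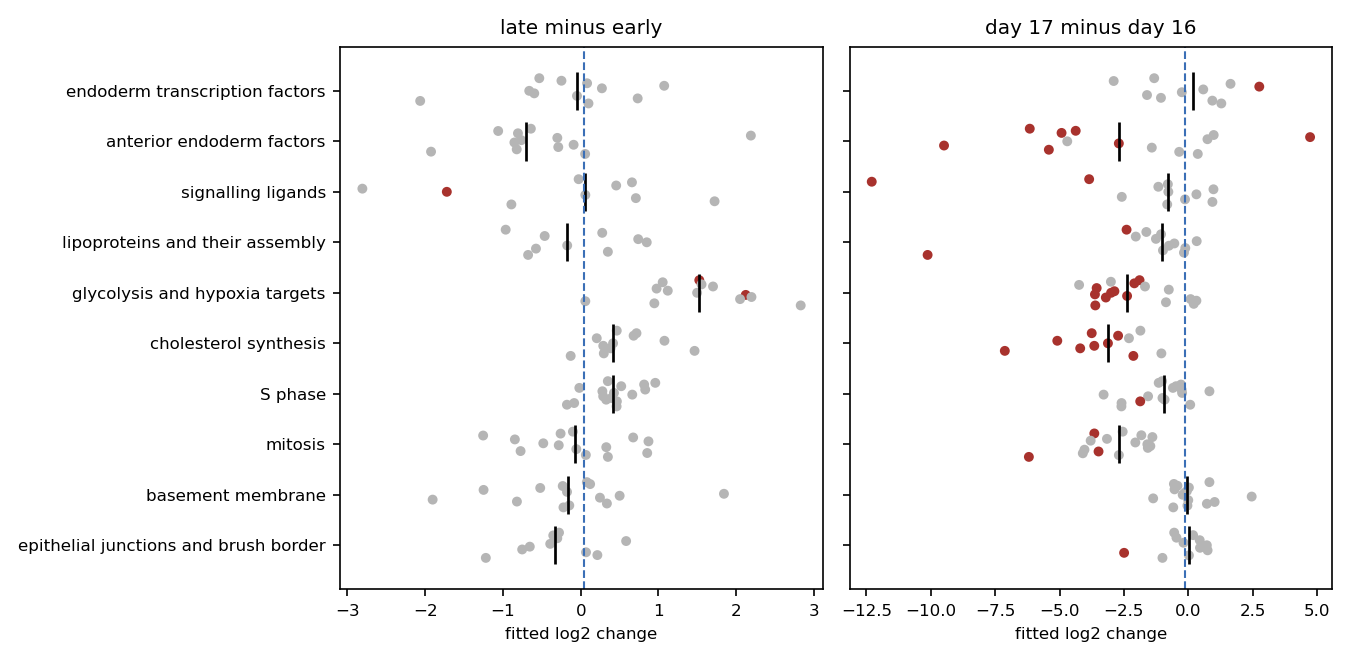
Log2 change of every tested member of 10 gene lists, early to late and day 16 to day 17. Each point is a gene, red where the edgeR adjusted p is under 0.05, the black bar is the list's median and the dashed blue line the median of all genes tested (0.04 and -0.12). Cholesterol synthesis and anterior factors lie well below 0 from day 16 to day 17 (medians -3.12 and -2.70), and glycolysis and hypoxia genes lie above 0 from early to late (1.52) and below it from day 16 to day 17 (-2.38).

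Of the secreted liver-like genes few were called. Lipoproteins gave 2 falls in 12 (APOA1 and FABP1, median -1.02), serum carriers 0 in 2 and coagulation factors 0 in 6 (median 1.08). APOA1 was at 10772, 15297, 8742 and 6214 CPM on day 16 and at 508, 1680 and 3357 on day 17 (-2.40, SE 0.45, edgeR adjusted p = 0.00145). The highest day 17 embryo was below the lowest of day 16. TTR was at 1416, 1374, 536 and 7282, then 203, 836 and 1264, which overlapped (-1.70, SE 1.03, edgeR adjusted p = 0.567). FABP1 was at 570, 282, 10.5 and 71.7 on day 16 with no count on day 17. It was at least 192-fold lower, at least 47.6-fold without day 16 replicate 1 and at least 51.4-fold without day 17 replicate 3. Of the 4 leave-out fits that tested it, 2 no longer called it. Of 10 endoderm transcription factors only FOXA1 passed, at 24.3, 21.3, 46.4 and 38.1 CPM and then 127, 344 and 130 (2.76, SE 0.70, edgeR adjusted p = 0.0195), though 3 of 7 leave-out fits no longer called it. DPPA3 was at 650, 943, 1105 and 125 CPM, then 25.4, 126 and 11.1 (-3.46, edgeR adjusted p = 0.0368), and lost its call in 2 of 7.

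Transporters gave 2 falls in 7 (SLC2A1, and SLC39A4, missed in 3 of 7 leave-out fits), junction genes 1 in 11 (KRT19), and hypoblast and parietal genes FST up and KRT19 down in 9. Basement membrane had 0 of 15 called, endocytic uptake 0 of 7, iron handling 0 of 6 and haematopoietic cytokines 0 of 3. In the lists for other cells SOX2 rose and GDF3 fell among 6 epiblast genes and EOMES fell in 2 gastrulating genes, while mesenchyme (0 of 6), trophoblast (0 of 2), amnion (0 of 3) and blood (0 of 1) genes had none. SOX2 (3.66, edgeR adjusted p = 0.031) was not called in 6 of 7 leave-out fits, nor with developmental stage labels alone (edgeR adjusted p = 0.106). The mesenchyme sums were 265 to 889 CPM on day 16 and 400 to 1244 on day 17, the epiblast sums 609 to 2044 and 156 to 429. GDF3, which stands out in VE/YE, made up most of the epiblast sum in day 16 replicates 1, 2 and 3. It had no count on day 17, so the lower sums there do not show a fall of the other epiblast genes. The part of other cells in these changes was not tested.

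The 10 rises of smallest p were GRIA1, FST, NRXN3, PRKG1, ST6GALNAC3, ARHGAP28, DACH2, KHDRBS2, LRRC3B and PLD5. GRIA1, a glutamate receptor subunit, was at 2.02, 0, 4.22 and 4.48 CPM on day 16 and at 25.4, 344 and 747 on day 17 (7.13, SE 0.86, edgeR adjusted p = 7.44e-06). NRXN3, a synaptic adhesion protein, was at 82.9, 68.3, 40.1 and 105, then 686, 513 and 1084 (3.44). PRKG1, the cGMP-dependent kinase, was at 19.5, 25.6, 120 and 108, then 432, 1264 and 1681 (4.12). In all 3 genes the day 17 values lay above day 16 without overlap. For GRIA1 in day 17 replicate 1, a sum of 22334 counts, the 25.4 CPM was 1 count. The separation of that embryo from day 16 therefore rests on 1 count. Among the list members, 36 genes were called, 19 in every fit without 1 embryo and 13 when the day 17 embryo with a developmental stage label was compared with day 16. In that within-label fit CER1 changed by -5.58 (edgeR adjusted p = 0.00941), FST by 4.95 (0.000175), INSIG1 by -7.80 (0.00414), LEFTY1 by -4.19 (0.0763), APOA1 by -1.64 (0.168) and SLC2A1 by -2.29 (0.109); the lone day 17 embryo is assumed there to vary as the day 16 embryos do. Over all 7574 genes tested, 245 (3.23%) were called. The number of list members tested, and the share of all 245 calls kept in these fits, are not given. The 36, 19 and 13 are therefore descriptions only. Counts of calls over all genes fell to 156 without day 16 replicate 1 and to 148 without day 17 replicate 1.

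Whether VE/YE changed differently from its neighbours was tested with the difference of the changes, VE/YE minus EXMC or minus EPI, in embryos with at least 3 cells of each and embryo as a block. From early to late against EXMC, the difference was positive for 7 genes and negative for 56, 0.481% of 13097 tested (1180 at an unadjusted p under 0.05, median -0.23). Without day 17 the counts were 29 and 59. Against EPI the difference was positive for 10 genes and negative for 6, 0.116% of 13834 (1067 at an unadjusted p under 0.05, median -0.19). A positive difference need not be a rise in VE/YE: NLRP7, given below, fell in both families and less in VE/YE.

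TPM1, a tropomyosin, was at a mean of 442 CPM early and 355 late in VE/YE and at 341 and 1759 in EXMC (difference of log2 changes -2.82, SE 0.33, edgeR adjusted p = 1.87e-07). MLLT3 went from 41.8 to 216 in VE/YE and from 322 to 185 in EXMC (3.46, SE 0.51, edgeR adjusted p = 7.43e-05), so that VE/YE lay below EXMC in all 7 early embryos. COL4A1 went from 397 to 161 in VE/YE and from 558 to 1021 in EXMC (-2.14, SE 0.36, edgeR adjusted p = 0.00042), and SPARC, another matrix protein, was the further basement membrane gene below. AK4 (-3.14), SPON2 (-10.2), IL1RAPL1 (-4.31), FBLN1 (-3.09) and S100A16 (-3.42) completed the 8 of smallest p. SPON2, a secreted matrix protein, was at 0 to 194 CPM in early VE/YE and at 0 to 6.83 in late, while EXMC went from at most 3.21 to between 7.07 and 27.6; with so few counts the fitted difference is no measure of size. OTX2, FRZB and FZD5 were the anterior factors below EXMC's change, 3 of 15.

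Against EPI, DIP2C rose in VE/YE relative to EPI: 145 to 306 CPM in VE/YE and 1493 to 129 in EPI (4.89, SE 0.42, edgeR adjusted p = 4.89e-11). FZD7, a WNT receptor, was at 131 and 187 CPM in VE/YE and at 16.1 and 405 in EPI (-4.32, SE 0.54, edgeR adjusted p = 2.26e-06). POU5F1 was at 12.6 and 68.9 CPM in VE/YE and at 803 and 678 in EPI (2.79, edgeR adjusted p = 0.00936), so its level in VE/YE remained far below that of EPI. NLRP7, a maternal-effect gene, was at 330 and 96.2 CPM in VE/YE and at 218 and 2.78 in EPI (4.87, edgeR adjusted p = 0.0124). FTH1 (-2.16), whose counts may be shared with its many processed copies, FABP5 (1.72), NREP (3.04) and CCN2 (4.54) completed the 8 of smallest p.

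**Figure D5:**
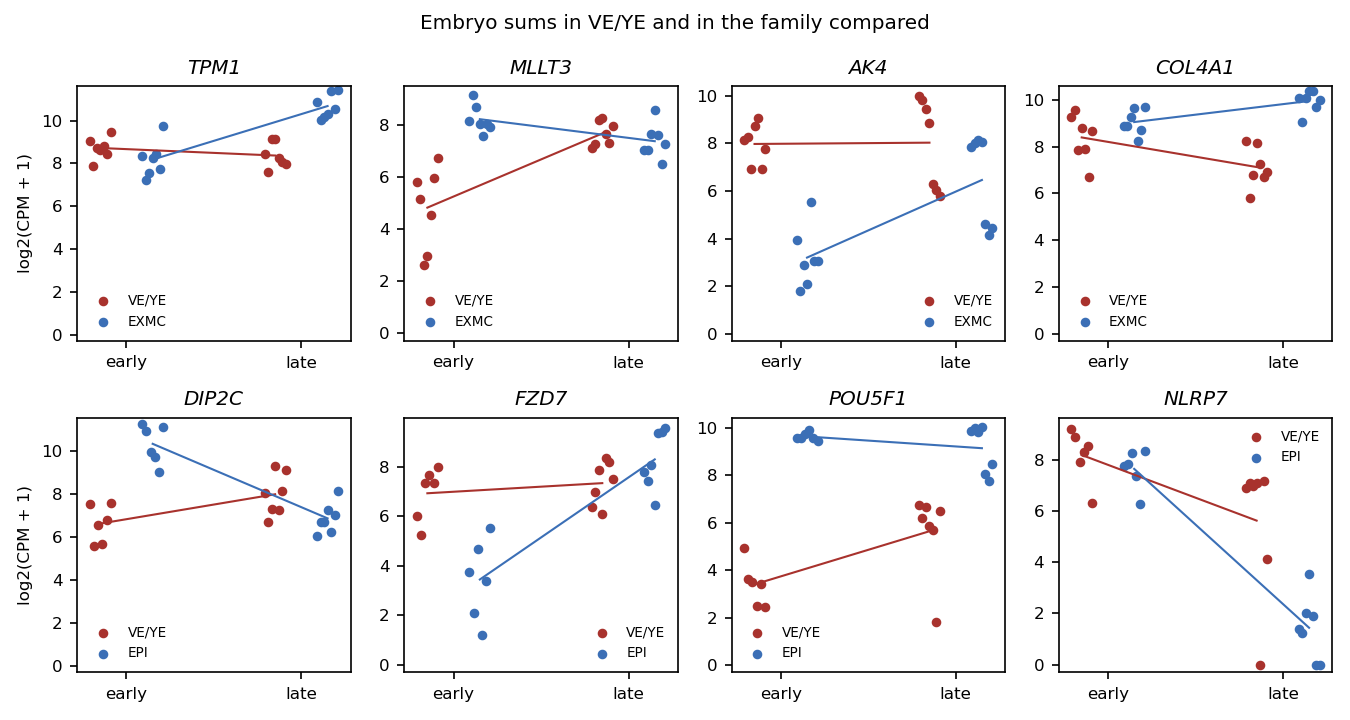
CPM per embryo (log axis) of 4 genes in VE/YE and EXMC and 4 genes in VE/YE and EPI, early and late, with lines joining the means of the log2 values. TPM1 is higher late in EXMC (341 to 1759 in the mean) and not in VE/YE, and DIP2C goes down in EPI from a mean of 1493 to 129 CPM while VE/YE stays between 46.2 and 634.

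The differences from day 16 to day 17 were chosen after the data were seen. Against EXMC the difference was positive for 70 genes and negative for 132, 1.45% of 13956 tested (1369 at an unadjusted p under 0.05, median -0.31). Against EPI it was positive for 65 and negative for 85, 1.1% of 13652 (1092 at an unadjusted p under 0.05, median 0.05). Against EPI the counts were 65 and 45 without day 17 replicate 1 and 44 and 39 without day 16 replicate 1. These differences use the same VE/YE sums as the comparison of days above. Of its 10 named rises 9 were called in both differences (all but PLD5), and of its 10 named falls 3 were, TBCA, ZIC2 and CKB. GRIA1 averaged 2.68 and 372 CPM in VE/YE, 21.4 and 30.7 in EXMC and 56.3 and 106 in EPI on days 16 and 17.

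Fewer of the cholesterol and glycolysis genes were called in these differences. In cholesterol synthesis 3 of 13 genes fell more in VE/YE than in EXMC (INSIG1, MVD and HMGCS1) and 1 more than in EPI (MVD). In glycolysis and hypoxia 4 of 19 did against EXMC (NDRG1, ENO1, P4HA2 and SLC2A1) and 2 against EPI, while ADM, the peptide adrenomedullin, went the other way in each. Of 15 mitosis genes tested, 2 were below EXMC (NUSAP1 and TOP2A) and 3 below EPI (these and CENPF). FST was above in both, LHX1 and NOG were below EXMC alone, and OTX2 was below EPI, where it averaged 49.8 and 298 CPM, alone. Whether the differences against EXMC and EPI themselves differ was not tested. APOA1, TTR, FOXA2, SOX17 and F2 came out above EXMC, while RBP4 was below EXMC and GATA6 below both EXMC and EPI. Here EXMC values must be kept in view: APOA1 in EXMC averaged 973 CPM on day 16 and 26.3 on day 17, beside 10256 and 1848 in VE/YE.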

How the data were processed

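The table holds whole-number counts per gene and cell for 30792 features and 1453 cells, as deposited by the authors. Reads were aligned with STAR per the submitters' processing notes; the genome build, annotation, counter, strand setting and any collapsing of molecular identifiers are stated by no label or header used here. A second deposited table gives each cell's day and annotation. Loci named only by number took their symbols from RefSeq's gene table of the telomere-to-telomere assembly where it pairs them. Counts were summed per embryo and annotated family (at least 3 cells) and fitted with edgeR 4.0.16 in R 4.3.3 (TMM scaling, filterByExpr, robust quasi-likelihood F-test, Benjamini-Hochberg over all genes tested, threshold 0.05). DESeq2 1.42.0 was an alternative. Differences between families used a stage by family term with embryo as a block. The share of cells was tested with SciPy 1.17.1. Single cells were described as log2(CPM + 1), computed here. Sums of 22334 to 1677017 counts set the precision.

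The members and the 24 gene lists were chosen with earlier results of these data known, so no list gives independent support. Genes were named by rule: the 5 markers, list members (up to 4 called in each direction by smallest p, and members with a described role), the 12 largest folds over the next family at 50 CPM or more, the 10 largest rises and 10 largest falls among called genes at 20 CPM or more with a symbol, the 8 smallest adjusted p in each difference, and the 8 genes most like CER1 and APOA1; for day 17 against day 16 the 10 smallest p each way. The fits were tested on simulated counts. Values of a few list members are not reported here.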

Additional observations from a re-analysis of the deposited data

Results flagged for a closer look

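Of 66 groups of 7 embryos checked, 12 had a single embryo far from the others on the log2(CPM + 1) scale. The rule flags about 1 in 20 groups of independent normal values. These groups share embryos, and the late ones pool days 16 and 17, so the 12 cannot be read against that rate. Day 17 replicate 1, the shallowest sum, was the lowest late embryo at 0 CPM for HERC3, HNF4A, KIAA1211, PTPRK, RAB17 and WDR54. Day 17 replicate 2 was the lowest for FOLR1 (0 CPM) and LOXL2 (12.8 CPM), and day 16 replicate 3 for FOXA2 (10.5 CPM). Among early embryos day 13 replicate 2 was the lowest for APOA1 (2175 CPM) and F2 (0 CPM), and day 13 replicate 3 for WFDC2 (1.46 CPM).

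The change from early to late differed between VE/YE and EXMC (difference of log2 changes, edgeR adjusted p under 0.05) for TPM1 (-2.82), SPON2 (-10.2), AK4 (-3.14), MLLT3 (3.46), IL1RAPL1 (-4.31), FBLN1 (-3.09), S100A16 (-3.42) and COL4A1 (-2.14). It differed between VE/YE and EPI for DIP2C (4.89), FZD7 (-4.32), POU5F1 (2.79), FTH1 (-2.16), FABP5 (1.72), NREP (3.04), CCN2 (4.54) and NLRP7 (4.87).

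The change from day 16 to day 17 differed from that of EXMC and of EPI in the same direction for genes that include the following. They are given as the difference against EXMC and then EPI. Above were GRIA1 (5.99, 5.73), FST (3.36, 3.86), NRXN3 (4.69, 3.30), PRKG1 (4.89, 4.10), ST6GALNAC3 (2.60, 4.30), ARHGAP28 (5.14, 4.51), DACH2 (4.35, 6.43), KHDRBS2 (5.48, 5.64) and LRRC3B (7.0, 5.76). Below were TBCA (-2.61, -2.93), ZIC2 (-4.31, -3.96), CKB (-3.18, -2.93), KRT19 (-2.23, -2.0), ENO1 (-1.49, -1.40), NDRG1 (-4.24, -5.48), TOP2A (-2.58, -2.42), NUSAP1 (-5.05, -4.81) and MVD (-4.35, -4.22). FST, NRXN3, PRKG1, TBCA, NDRG1 and NUSAP1 were called in both differences whichever embryo was left out. The other 12 given here lost the call in at least 1 of these fits.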

How the results depend on the processing

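Depth and the number of embryos limit these results: each period has 7 sums, 3 of the late ones from day 17, and the 4 day 14 embryos are in no VE/YE sum. Genes called late against early numbered 62, and 195 with the DESeq2 Wald test, 485 with no filter on low counts, 32 with at least 5 cells per embryo, 98 with at least 2, 141 with label type as a covariate, 100 with developmental stage labels alone, 280 without day 16, 149 without day 17 and 96 without both day 17 embryos of culture stage label. Without 1 embryo they numbered 14 to 77. They fell below 42 without day 12 replicate 2 (14), day 16 replicate 1 (19), day 12 replicate 3 (22), day 16 replicate 3 (23), day 11 replicate 1 (26), day 12 replicate 5 (27), day 17 replicate 3 (32), day 11 replicate 2 (38) and day 16 replicate 4 (38). Rises were 67.7% of calls, 93.8% with at least 5 cells, 83.2% without day 17, 84.4% without both day 17 embryos of culture stage label and 37.1% without day 16.

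For day 17 against day 16 the 245 calls became 384 with DESeq2 and 123 with developmental stage labels alone, and 148 to 254 without 1 embryo. Late against early, the 63 calls of VE/YE minus EXMC became 218 with DESeq2, 35 with at least 5 cells of both and 42 to 73 without 1 embryo, and the 16 of VE/YE minus EPI became 120 with DESeq2. Day 17 against day 16, the 202 minus EXMC became 310 with DESeq2 and 123 (without day 17 replicate 3) to 218, with 134 without day 17 replicate 1. The 150 minus EPI became 290 with DESeq2 and 83 (without day 16 replicate 1) to 176, with 98 without day 16 replicate 3. Genes standing out numbered 177, and 429 at 2-fold, 71 at 8-fold and 116 with a pseudocount of 5. The difference in the share of cells was 1.08 to 3.15 points without 1 embryo. The cause of these shifts was not tested.

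Only changes that were not called reversed. CER1 late against early turned to 0.409 with developmental stage labels alone, 0.0890 without day 17 and 0.0233 without day 13 replicate 2, and ranged from -1.45 to that value without 1 embryo. TTR turned to -0.357 without day 16, and ranged from -0.140 (without day 16 replicate 4) to 1.76. HNF4A turned to 0.0742 with label type as a covariate, 0.0328 with developmental stage labels alone, 0.389 without day 17 and 0.204 without both day 17 embryos of culture stage label. Without 1 embryo it ranged from -0.263 to 0.131 (without day 11 replicate 2), and was above 0 also without day 12 replicate 2, day 13 replicate 3 and each day 17 embryo. No paired analysis was possible because the replicate numbers only name the embryos of a day and each embryo belongs to 1 day.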
